A study of Mus musculus with 6 samples.

Results

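The genes described here are 9 genes with known parts in the last steps of red cell formation, chosen by name: Xpo7, Trim58, Trim10, Riok3, Fbxo7, Foxo3, Diap3, Rac1 and Rac2. All 9 were measured among 19937 genes on the array, each by a single probe set, and Diap3 stands on the array under its present symbol Diaph3. RNA came from whole livers of 3 Klf1-/- embryos and 3 wildtype embryos, all FVB/NJ mice at embryonic day 13.5, taken from timed matings of Klf1 +/- animals. Klf1 is a zinc finger transcription factor of red cells. The labels do not say how the Klf1 allele was made, and the livers were dissociated but not sorted, so each array holds all liver cells. Each liver had its own 1-colour array, so n = 3 per group throughout.

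A red cell precursor of a mammal ends its maturation by condensing its chromatin, pushing the nucleus to one side and expelling it. Nuclear exportins let proteins, histones among them, leave the nucleus. Ubiquitin ligases remove proteins and motors that are no longer needed, and Foxo3 turns on genes for clearing organelles and for handling oxidants. A ring of actin and myosin, set up by Rac GTPases and formins, then pinches the nucleus off. The fetal liver is the main site of this process before birth.

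Most of the 9 genes were lower without Klf1, Xpo7 by far the most, while Rac2 was higher. At a limma adjusted p under 0.05 over all genes, 6 of the 9 fell, against 8.26% of all genes called lower. Rac2 alone of the 9 rose, against 10.8% of all genes called higher. Fbxo7 and Rac1 were not called. All 9 lay above the array median on all 6 arrays. With genes under the median left out, 1320 of 9969 genes were called lower and 2347 higher, beside 7 and 1 of the 9. The 9 were chosen with earlier results of these data known. Values of the knockout arrays did not overlap those of the wildtype arrays in 8 of the 9 genes, against 37.5% of all genes, and the exception was Rac1. The median change of the 9 was -0.58, beside -0.02 over all genes. Changes are knockout minus wildtype in log2 intensity, with the standard error of the fit after ±. Intensities are compared between arrays for 1 probe set at a time, since probe sets differ in brightness for the same amount of RNA.

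Klf1 itself read 9.05, 9.38 and 9.12 in the knockout arrays and 10.59, 10.58 and 10.76 in the wildtype arrays (log2 intensity). The difference was -1.46 ± 0.10 (limma adjusted p = 3.7e-06), in the direction of the labels. Ermap and Rhd, the red cell markers with the largest falls, fell by 1.59 and 1.53 without being targeted. The Klf1 fall is therefore no separate check of the allele, and a probe set outside the altered part would check nothing. Markers of red cell precursors were lower as well: 11 of 12 measured fell and 0 rose, and their summed intensity was 38759 to 41710 in knockout livers and 74405 to 82100 in wildtype livers. In whole liver RNA, fewer cells of a type and less RNA per cell cannot be told apart. The part of cell numbers in the changes below was not tested.

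Xpo7, an exportin that in red cell precursors is needed for the nucleus to condense, changed most. Its log2 intensity was 10.41, 10.59 and 10.57 in the knockout arrays, against 12.69, 12.57 and 12.90 in the wildtype arrays. All knockout values lie more than 1 log2 unit below the lowest wildtype value. Xpo7 fell by 2.20 ± 0.10 on the log2 scale (95% interval -2.42 to -1.98, limma adjusted p = 1.5e-07), to 21.8% of the wildtype level. Of the 19937 genes it had the 35th most negative change.

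Trim58, a ubiquitin ligase that directs the motor protein dynein to destruction, read 8.14, 8.07 and 8.07 in the knockout arrays, against 9.32, 9.10 and 9.39 in the wildtype arrays. The knockout values sit close together and below every wildtype value. Trim58 fell by 1.18 ± 0.09 (adjusted p = 7e-06), to 44.2% of wildtype. Trim10, a RING finger protein of the same family that is abundant in blood cell precursors, read 10.82, 11.01 and 10.83 in knockout and 11.84, 11.81 and 11.97 in wildtype. Here too the groups stand apart. Trim10 fell by 0.99 ± 0.09 (adjusted p = 1.9e-05), to 50.4% of wildtype. Xpo7 and Trim58 were the 2 genes of the 9 whose change reached 2-fold.

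Riok3, an atypical kinase of the RIO family that late red cell precursors need for enucleation, read 9.65, 9.75 and 9.66 in the knockout arrays, against 10.23, 10.23 and 10.33 in the wildtype arrays. It fell by 0.58 ± 0.08 (adjusted p = 0.0004), to 66.9% of wildtype. Foxo3, the forkhead factor named above, read 9.72 in each of the knockout arrays, against 10.22, 10.34 and 10.38 in the wildtype arrays. Its fall of 0.60 ± 0.08 (change -0.60, adjusted p = 0.00033) left 66.1% of the wildtype level. For these genes the groups do not overlap and the change is below 2-fold.

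Fbxo7, the substrate-binding subunit of an SCF ubiquitin ligase, changed little. It read 9.78, 9.83 and 9.86 in the knockout arrays, against 10.01, 9.98 and 10.11 in the wildtype arrays. The knockout values were all lower, but the change of -0.21 ± 0.08 was not called (95% interval -0.38 to -0.04, adjusted p = 0.079). This call turned with the processing: with another model of the variance, in which the spread follows the level, the adjusted p was 0.044 at the same change. With any 1 array left out it lay between 0.1 and 0.17.

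Diaph3, also called mDia2, is the formin that builds actin filaments of the contractile ring. Its log2 intensity was 9.68, 9.76 and 9.73 in the knockout arrays, against 10.19, 10.01 and 10.25 in the wildtype arrays. Every knockout value was below the lowest wildtype value. Diaph3 fell by 0.42 ± 0.08 (change -0.42, adjusted p = 0.0054), to 74.6% of wildtype. Of the 6 falls it was the smallest.

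The Rac GTPases did not move with the others. Rac1, found in nearly all cells, read 11.39, 11.65 and 11.60 in the knockout arrays, against 11.49, 11.46 and 11.31 in the wildtype arrays. The groups overlap, and the change of 0.12 ± 0.09 was not called (95% interval -0.08 to 0.33, adjusted p = 0.38). With each array centred on the level of housekeeping genes the Rac1 change turned to -0.19. That centring also moved the median change of all genes to -0.34. Rac2, the form largely restricted to blood cells, read 11.27, 11.33 and 11.20 in the knockout arrays, against 10.29, 10.62 and 10.42 in the wildtype arrays. Every knockout value was above the highest wildtype value. Rac2 rose by 0.82 ± 0.10 (adjusted p = 0.00016), to 177% of wildtype, and kept a positive change under every scaling tried, with 0.51 the smallest.

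**Figure D1:**
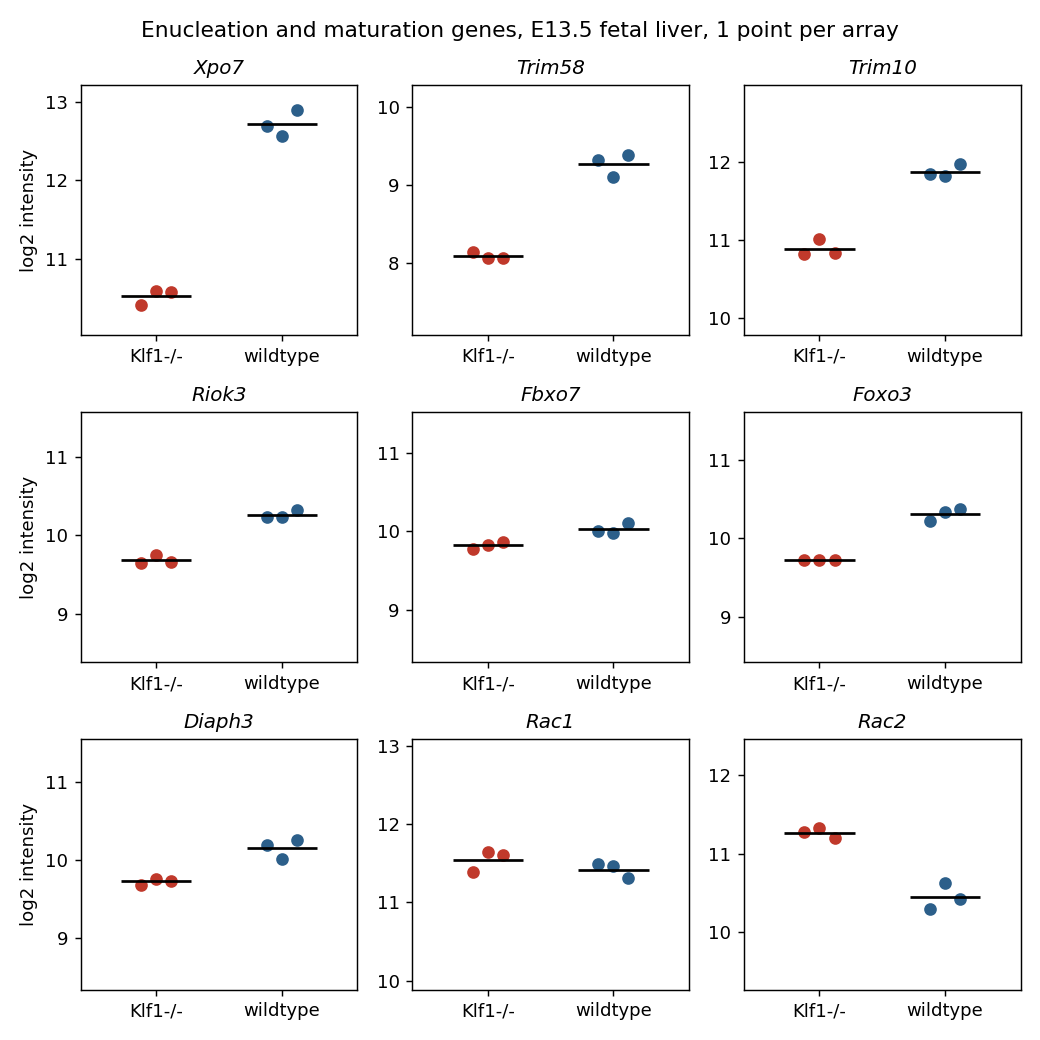
Log2 intensity of the 9 genes on each array, knockout (Klf1-/-) left and wildtype right in each panel, with a line at the group mean; every panel spans the same number of log2 units, and the levels of different panels are not comparable. The groups stand furthest apart for Xpo7 (means 10.52 in knockout and 12.72 in wildtype), overlap for Rac1, and lie the other way round for Rac2.

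Replicates of a genotype were close. The SD over 3 arrays ran from below 0.01 for Foxo3 to 0.14 for Rac1 in knockout, and from 0.06 for Riok3 to 0.17 for Xpo7 and Rac2 in wildtype (log2 intensity). Wildtype replicate 3 was above the wildtype mean in 7 of the 9 genes, and knockout replicate 2 was above the knockout mean in 7. Leaving out any 1 array left all 7 calls in place; the Xpo7 change then ran from -2.28 to -2.11 and that of Rac2 from 0.74 to 0.91.

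**Figure D2:**
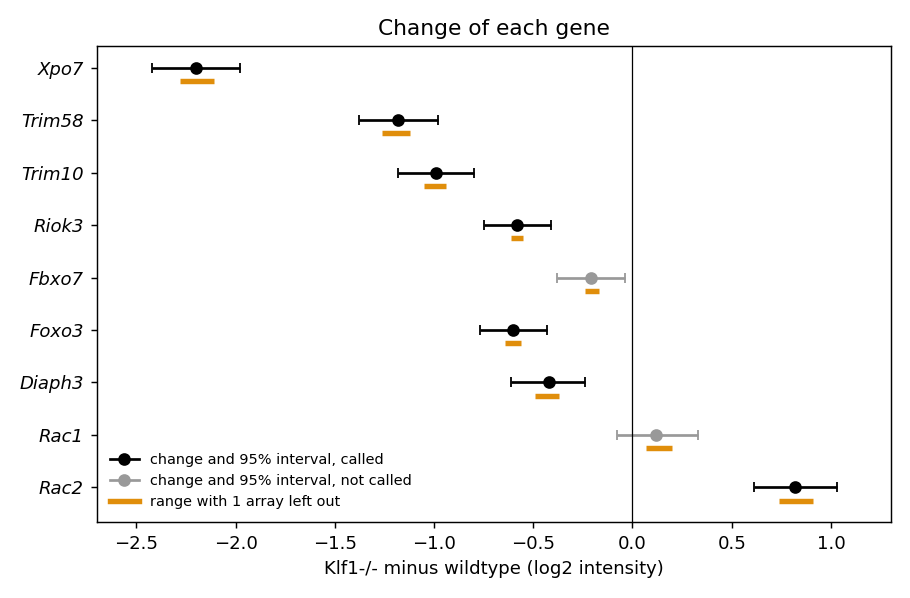
Change of each gene (knockout minus wildtype, log2 intensity) with its 95% interval from the limma fit; black marks called genes, grey those not called, and the orange bars give the range with 1 array left out. The intervals of Xpo7, Trim58 and Trim10 lie at or below -0.80, that of Rac1 spans 0, and that of Rac2 runs from 0.61 to 1.03.

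Promoter windows, from 250 bases before to 50 after the transcription start in RefSeq (GRCm38.p6), were at hand for 5 of the 9 genes: Trim58, Trim10, Fbxo7, Foxo3 and Diaph3. The windows of the 4 of these genes that were called lower are shown. Klf1 binds CACC boxes, and whether it binds in these windows was not tested. The windows were searched on both strands for CCNCNCCC, a core letter pattern of CACC boxes bound by Klf family factors, and for GATAA, bound by GATA factors; N is any base. Capitals mark matches to either pattern, read on the strand of the gene. They are Trim58 at chr11:58640215-58640514 (plus strand), Trim10 at chr17:36869324-36869623 (plus strand), Foxo3 at chr10:42276646-42276945 (minus strand) and Diaph3 at chr14:87141175-87141474 (minus strand).
Trim58: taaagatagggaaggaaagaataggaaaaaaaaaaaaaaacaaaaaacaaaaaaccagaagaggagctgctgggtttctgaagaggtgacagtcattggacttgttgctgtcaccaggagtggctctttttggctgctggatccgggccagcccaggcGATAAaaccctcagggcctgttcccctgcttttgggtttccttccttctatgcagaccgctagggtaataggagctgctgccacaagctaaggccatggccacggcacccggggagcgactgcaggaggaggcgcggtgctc
Trim10: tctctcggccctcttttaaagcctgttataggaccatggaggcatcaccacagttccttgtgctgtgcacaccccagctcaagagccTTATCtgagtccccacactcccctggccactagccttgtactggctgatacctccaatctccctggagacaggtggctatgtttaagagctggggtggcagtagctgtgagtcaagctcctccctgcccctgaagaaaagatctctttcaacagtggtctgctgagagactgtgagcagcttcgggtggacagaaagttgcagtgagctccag
Foxo3: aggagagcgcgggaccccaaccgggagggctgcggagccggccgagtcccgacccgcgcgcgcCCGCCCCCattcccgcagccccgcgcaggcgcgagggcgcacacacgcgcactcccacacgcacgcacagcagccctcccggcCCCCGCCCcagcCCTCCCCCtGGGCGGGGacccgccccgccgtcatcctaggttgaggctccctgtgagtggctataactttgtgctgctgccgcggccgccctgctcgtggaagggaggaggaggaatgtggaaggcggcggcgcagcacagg
Diaph3: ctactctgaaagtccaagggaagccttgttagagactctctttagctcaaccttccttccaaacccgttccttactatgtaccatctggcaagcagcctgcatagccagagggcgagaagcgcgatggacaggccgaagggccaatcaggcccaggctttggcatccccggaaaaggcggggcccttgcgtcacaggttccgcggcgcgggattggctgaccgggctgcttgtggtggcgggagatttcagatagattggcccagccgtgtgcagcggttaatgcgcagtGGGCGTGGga
The Trim58 and Trim10 windows each hold 1 GATAA and 0 CCNCNCCC; in Trim58 the match starts 92 bases before the transcription start, and in Trim10 it lies on the opposite strand and reads TTATC. Foxo3 has 4 matches to CCNCNCCC and Diaph3 has 1, after the start, and neither has GATAA. Fbxo7 has 0 of either in both of its windows. Matches did not overlap each other. Of 32817 promoter windows in the mouse table, 49.5% hold CCNCNCCC and 25.4% hold GATAA, so the patterns are common and a match is a description of the letters only.

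Relatives of Rac2, Diaph3, Foxo3, Riok3 and Xpo7 from the same gene families were read beside them. Rac3, the third Rac gene, read 7.22 ± 0.11 in knockout and 6.93 ± 0.18 in wildtype (SD, n = 3), a change of 0.29 ± 0.10 that was not called. The formins Diaph1 and Diaph2, relatives of Diaph3, had changes of 0.40 ± 0.11 (adjusted p = 0.028) and 0.35 ± 0.08 (adjusted p = 0.014). Both of these calls were lost without knockout replicate 3 or wildtype replicate 2 and with housekeeping level centring, and that of Diaph1 also without knockout replicate 2 or wildtype replicate 1 and with quantile or 75th percentile scaling. Of the Foxo factors, Foxo1 had 0.30 ± 0.08 (adjusted p = 0.022), lost under each scaling alternative and with any 1 array but wildtype replicate 1 left out, and turned to -0.02 with housekeeping level centring, while Foxo4 fell by 0.39 ± 0.08 (adjusted p = 0.008). Riok1 at 0.01 ± 0.09 and Riok2 at 0.12 ± 0.09, kinases of ribosome assembly, were not called. Ranbp17, the exportin nearest to Xpo7 in the family, fell by 0.43 ± 0.10 (adjusted p = 0.011; not called without moderation of the variances), and the exportin Xpo4 had -0.16 ± 0.08 and was not called.

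The difference between a gene and its relative was taken within each array, where a common centring of the array cancels. Diaph3 less Diaph1 changed by -0.83 ± 0.13 and Diaph3 less Diaph2 by -0.78 ± 0.06 between knockout and wildtype arrays. In this paragraph ± is the standard error from the spread of the array differences, pooled over the groups without moderation. Foxo3 less Foxo1 changed by -0.89 ± 0.10, Xpo7 less Ranbp17 by -1.77 ± 0.06 and Rac2 less Rac1 by 0.70 ± 0.14. In all 10 pairs compared the knockout and wildtype differences did not overlap. The share of all single genes without overlap was 37.5%, and the share over gene pairs in general was not computed. Each pair holds a gene called above and was picked after the values were seen, so the count largely repeats those calls. The 2-sided exact permutation p was 0.1 in each pair, also after Benjamini-Hochberg adjustment over the 10 pairs. This is the smallest p that 3 against 3 arrays can give. This test therefore could not call a difference at 0.05 whatever its size.

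**Figure D3:**
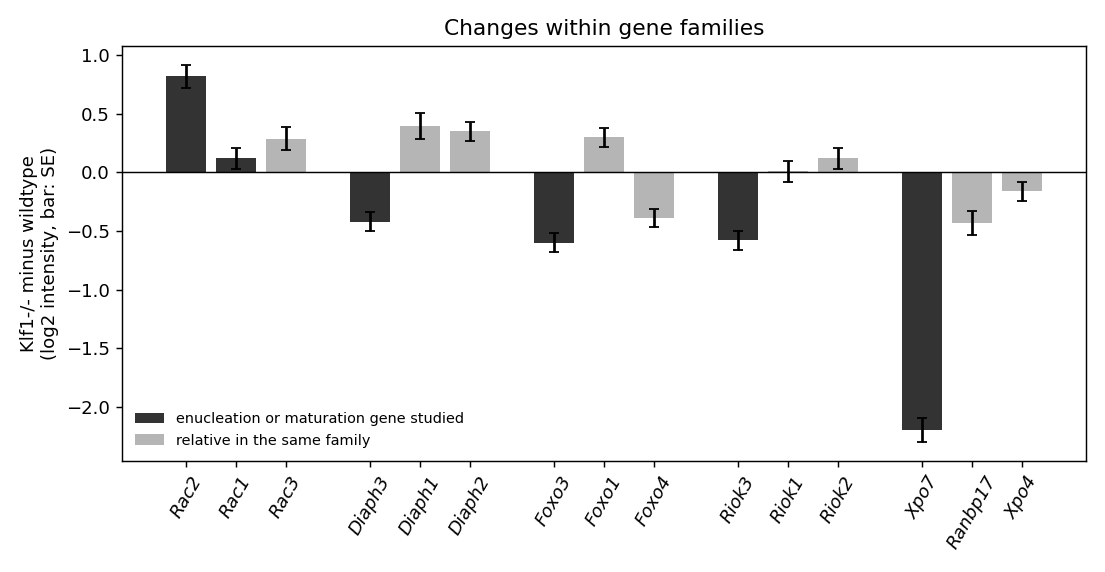
Changes (knockout minus wildtype, log2 intensity, error bar the standard error of the limma fit, n = 3 arrays per group) of the studied genes in dark grey and their relatives in light grey. Xpo7 stands at -2.20 beside Ranbp17 at -0.43, and Diaph3 at -0.42 beside Diaph1 at 0.40 and Diaph2 at 0.35.

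Partners of the Rac GTPases had more rises than falls, a balance that turned with 1 of the scalings. Of 27 measured Rac partner genes 10 rose, 2 fell and 15 were not called, with a median change of 0.18. With housekeeping level centring 5 rose and 10 fell. That centring shifts all genes downward alike and called 11 of the 12 housekeeping genes themselves lower, against 0 without it. With housekeeping deviation centring 10 Rac partner genes rose and 1 fell. The inhibitor gene Arhgdib, which holds GTPases inactive in blood cells, rose by 0.81 ± 0.10, Was, an activator of actin branching, by 0.71 ± 0.08, and the Rac activator Dock2 by 0.67 ± 0.08. These rises held with housekeeping level centring. Prex1, another Rac activator, fell by 0.66 ± 0.08, and the scaffold Iqgap2 had -0.30, a call lost without any 1 knockout replicate or wildtype replicate 1. Levels of Arhgdib were 11.13 ± 0.10 in knockout and 10.32 ± 0.15 in wildtype, and those of Was were 8.68 ± 0.10 in knockout and 7.97 ± 0.02 in wildtype (log2 intensity, SD, n = 3). Limma adjusted p was 0.0002 or less for all of these but Iqgap2, at 0.026.

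Markers of other blood cells moved too. All 9 measured megakaryocyte markers rose, 5 of 10 granulocyte markers rose, and 5 of 8 stem and progenitor markers rose, with 0 falling in each list. The granulocyte count was 2 without knockout replicate 3 and 3 without knockout replicate 2 or wildtype replicate 3, and the progenitor count was 3 without knockout replicate 2 or wildtype replicate 2. Their summed intensity in knockout was 167%, 135% and 142% of the wildtype mean in that order. Bright probe sets weigh most in such sums. Thbs1, in the megakaryocyte sum, read 13.18 in knockout and 11.92 in wildtype (mean log2 intensity). Of the progenitor markers Kit had -0.16, Mecom -0.12 and Hlf -0.01, none of them called. Slamf1 of stem cells rose by 1.32 ± 0.08, and Thbs1 and Itga2b of megakaryocytes by 1.26 ± 0.09 and 1.05 ± 0.12. Macrophage markers went the other way, with 8 of 11 lower, 0 higher and a sum at 67.4% of wildtype. Sums of the megakaryocyte list ran from 27816 to 35843 in knockout and from 18777 to 19779 in wildtype, and those of the macrophage list from 3918 to 4396 in knockout and from 5797 to 6941 in wildtype. The part of these cells in the rise of Rac2 and its partners was not tested. Housekeeping level centring left 8 megakaryocyte, 2 progenitor and 0 granulocyte markers higher, and 3 progenitor markers lower. Without moderation of the variances 3 megakaryocyte, 1 progenitor and 0 granulocyte markers were called higher and 3 macrophage markers lower.

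**Figure D4:**
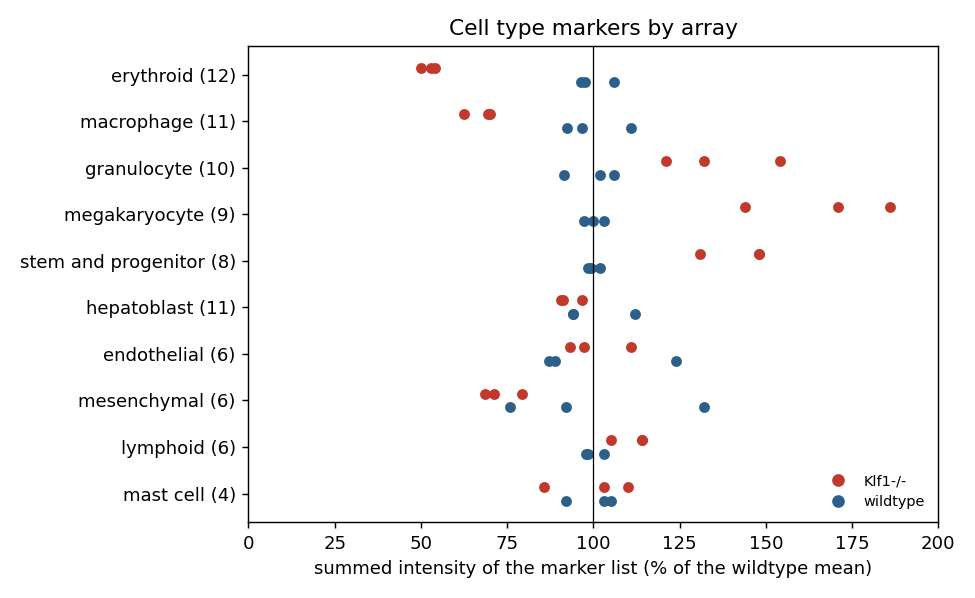
Summed linear intensity of each list of cell type markers on each array, as a percentage of the wildtype mean, with the number of measured markers in brackets; knockout (Klf1-/-) points stand above wildtype points. Knockout erythroid sums lie between 50.1% and 54.0% and megakaryocyte sums between 144% and 186%.

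Markers of the other liver cells gave few calls: 2 of 11 hepatoblast markers were lower, 1 of 6 endothelial markers higher, 1 of 6 mesenchymal markers lower and 1 of 6 lymphoid markers, Il7r at 0.71 ± 0.09, higher. Hepatoblast markers had 0 lower without knockout replicate 2 or 3 or wildtype replicate 3 and with quantile normalization or housekeeping deviation centring, and 1 without knockout replicate 1 or wildtype replicate 2. Endothelial markers had 0 higher under each scaling alternative and without knockout replicate 2 or 3 or wildtype replicate 1 or 2, and 3 without wildtype replicate 3. Mesenchymal markers had 0 lower without knockout replicate 2 and 3 without wildtype replicate 1. These calls of all 3 cell types were also lost with every probe set tested and with no moderation of the variances. With housekeeping level centring 9 hepatoblast, 1 endothelial, 4 mesenchymal, 3 lymphoid and 3 mast cell markers were lower. Limma called 0 of 4 mast cell markers, and 0 at an unadjusted p under 0.05. The mast cell markers Fcer1a and Ms4a2 were dim, at 4.03 and 4.30 in knockout and 4.10 and 4.39 in wildtype (mean log2 intensity). Genes this dim could hardly show a change. No marker is at 0, since the smallest deposited intensity is 5.6, but a value above 0 does not show that a gene is expressed.

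Genes of the contractile ring and formins split. Of 23 measured, 7 rose and 4 fell, with a median of 0.13. Kif23, a kinesin of the spindle midzone, fell by 0.78 ± 0.08 and Cit, a kinase of the midbody, by 0.58 ± 0.08. Anln, the ring scaffold anillin, fell by 0.46 ± 0.08 and Ect2, an exchange factor of the division furrow, by 0.26. Other ring genes were not called lower: Racgap1 had -0.14, Myh10 -0.07 and Myh9 0.21, none of them called. Myl12b was higher at 0.32 (limma adjusted p = 0.022), a call lost without knockout replicate 2 or 3 or wildtype replicate 2. Ect2 was not called with quantile normalization, with housekeeping deviation centring or with any 1 array but wildtype replicate 3 left out. The formin Inf2 rose by 0.92 ± 0.09 (adjusted p = 5.5e-05), also with housekeeping level centring. The count of rises was unstable, at 1 without knockout replicate 3, 2 without knockout replicate 2 or wildtype replicate 2, and 3 without wildtype replicate 1, and housekeeping level centring gave 1 rise and 10 falls.

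Among the nuclear transport receptors and their Ran partners 5 of 28 fell and 1 rose, with a median of -0.07. Besides Ranbp17, Rcc1, which charges Ran with GTP, fell by 0.38 ± 0.08, Kpna1, an importin alpha, by 0.37 ± 0.08 and Ipo13, an importin, by 0.30 ± 0.09, a call lost without any 1 knockout replicate or wildtype replicate 2 or 3. Without wildtype replicate 1 or 3 there were 4 falls and without any other array 3, while 7 fell with 75th percentile centring and 23 with housekeeping level centring. The size of the Xpo7 change was not shared by any of the 28 measured, whose most negative change was the -0.43 of Ranbp17.

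Dynein and dynactin genes, which encode the motor that Trim58 acts on, gave few calls in RNA level. Of 21 measured, 2 fell, 1 rose and 18 were not called, with a median of 0.01; with housekeeping level centring 13 fell and 0 rose. Nde1 and Pafah1b1, regulators of the motor, fell by 0.49 ± 0.07 and 0.31 ± 0.08, Pafah1b1 not called without knockout replicate 3. Dctn6 had 0.26 ± 0.08, not called with any 1 array but wildtype replicate 1 left out, and turned to -0.06 with housekeeping level centring. Of the 47 other Trim genes 7 fell and 5 rose, with a median of -0.06; 2 fell without knockout replicate 3 and 3 without knockout replicate 2 or wildtype replicate 1 or 2, 12 with 75th percentile centring and 32 with housekeeping level centring. Trim59 fell by 1.56 ± 0.09 (adjusted p = 8.7e-07) and Trim56 by 0.57 ± 0.08, while Trim68 rose by 0.62 ± 0.08 and Trim44 by 0.58 ± 0.10. Trim58 and Trim10 thus had more negative changes than all of these 47 but Trim59.

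Of 10 partners of Fbxo7 and SCF subunits 1 rose and 0 fell, with a median of 0.05; with housekeeping level centring 0 rose and 6 fell. The gene that rose was Psmf1, a proteasome inhibitor bound by Fbxo7, at 0.44 ± 0.08 (adjusted p = 0.0026; 0.16 with housekeeping level centring). It read 11.01 ± 0.05 in knockout and 10.57 ± 0.07 in wildtype (SD, n = 3).

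Among Foxo factors and known Foxo target genes the calls went both ways, with 7 of 27 higher, 6 lower and a median of -0.02; with housekeeping level centring 3 rose and 16 fell. Bnip3, a mitophagy receptor, rose by 2.09 ± 0.18 and Irs2, an insulin receptor substrate, by 0.97 ± 0.08. Sesn1, a stress-induced sestrin, fell by 0.92 ± 0.08 and Ulk1, the kinase that starts autophagy, by 0.77 ± 0.09. Catalase (Cat) at 0.16 and Sod2 at -0.02, antioxidant targets of Foxo3, were not called. Bnip3l, the mitophagy receptor of maturing red cells, fell by 0.35 (adjusted p = 0.016), a call lost with the mean of its probe sets and with knockout replicate 1 or 3 left out.

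The list of other genes linked with enucleation and late maturation was mostly lower. Of 29 measured, 17 fell, 3 rose and 9 were not called, with a median of -0.33, and 13 to 16 fell with 1 array left out. E2f2, a cell cycle factor whose loss hampers enucleation in mice, fell by 2.54 ± 0.09, Icam4, a red cell adhesion molecule, by 2.10 ± 0.10, Ranbp10, a tubulin-binding protein, by 1.54 ± 0.08 and Ube2h, a ubiquitin-conjugating enzyme of late red cell precursors, by 1.02 ± 0.09. Levels of E2f2 were 7.90 ± 0.10 in knockout and 10.44 ± 0.11 in wildtype (SD, n = 3). Plek2 at -0.98 and Tmod1 at -0.91, actin regulators, and Mxi1 at -0.30, a repressor of Myc targets, also fell. The call of Mxi1 (adjusted p = 0.018) was lost with housekeeping deviation centring and with knockout replicate 2 or 3 or wildtype replicate 2 left out. The 3 that rose were Klf13, Tmod3 and Hdac6, at 0.72, 0.57 and 0.28. Hdac6 (adjusted p = 0.026) turned to -0.03 with housekeeping level centring, and its call was lost under each other scaling, with every probe set tested and with knockout replicate 2 or 3 or wildtype replicate 1 or 2 left out. Ulk1 and Bnip3l, named among the Foxo target genes, are counted among the 17 falls too. These lists overlap with the red cell markers in kind, and all come from the same 6 arrays.

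**Figure D5:**
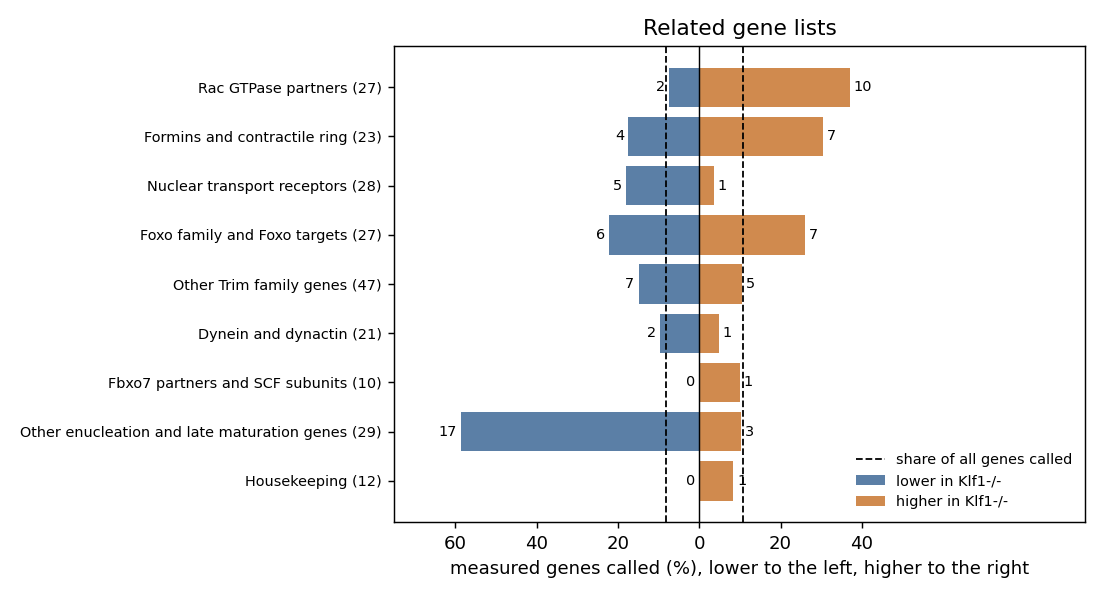
Share of the measured genes of each related list called lower (left) and higher (right) in knockout, with the counts at the bar ends and the number measured in brackets; dashed lines give the share over all genes, 8.26% lower and 10.8% higher. The late maturation list has 17 of 29 genes lower, and the Rac partner list 10 of 27 higher.

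Gene neighbours of the 9 were examined for whether a change extends along the chromosome. Of the 36 nearest measured protein-coding genes, 2 on each side in the GRCm38.p6 gene table, 4 were lower, 4 higher and 28 not called, with a median of -0.06, close to the shares over all genes. Xpo7 lies between Npm2 at 0.07 ± 0.08 and Dok2 at 0.29 ± 0.10. Trim58 lies between the olfactory receptor genes Olfr323 at -0.09 ± 0.10 and Olfr322 at -0.06 ± 0.14. None of these was called. Npm2, Olfr323 and Olfr322 were dim, at 5.14, 4.14 and 5.62 in knockout and 5.08, 4.24 and 5.68 in wildtype (mean log2 intensity). Others of the 36 were as dim. Genes this dim could hardly show a fall, so their missing calls cannot decide whether a change extends. Trim10 sits in a cluster of Trim genes, where Trim15 had -0.38 ± 0.11 (adjusted p = 0.031, lost without knockout replicate 2 or 3 or any 1 wildtype replicate) and Trim26, Trim40 and Trim31 were not called. Neighbours with clear falls, named after their values were seen, were Fam220a beside Rac1 at -1.67 ± 0.08, Rmc1 beside Riok3 at -0.80 ± 0.08 and Sesn1 near Foxo3. Rac1 itself thus had no called change beside a neighbour that read 9.72 in knockout and 11.38 in wildtype.

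Genes with the profile most like each called gene over the 6 arrays were found by the root mean square difference after centring each gene on its own mean. For Xpo7 they were Agpat4 (0.0752 log2 units), Slc1a5 (0.0839) and Tmcc2 (0.0891), with changes of -2.25, -2.24 and -2.08. Trim58 was nearest to Asb17, Prnp and Specc1, Trim10 to St3gal5, Camsap2 and Abcb10, and Diaph3 to Zfp341, Cmas and Gxylt1. Cln8 was among the nearest 3 for both Riok3 and Foxo3, with Mpp2 and Tpst1 besides for Riok3 and Tspan33 and Klf16 for Foxo3. Nprl2, Phc1 and C1qtnf4 were nearest to Rac2. With 2 groups of 3 arrays such likeness mostly repeats the size of the genotype difference.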

How the data were processed

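RNA of 6 whole livers was measured on 6 Affymetrix mouse gene arrays. The deposited values are probe set intensities on a linear scale, which the authors summarised with the RMA method (software Affymetrix Power Tools, version 1.8.6; source: the submitters' processing notes); RMA equalises the arrays, so a change in total RNA cannot be seen. The genome build is not given in the sources used here. Values ran from 5.6 to 27245, with a median of 104.5 to 109.8 per array; the number of arrays limits the precision. Log2 of the deposited intensity was taken. Of 34760 probe sets 21640 had 1 gene, 1321 several and 11799 none named here; the platform's annotation gave the names, and the brightest single-gene probe set stood for a gene. Groups were compared with limma 3.58.1 in R 4.3.3 (group as sole term, moderated variances, 2-sided, Benjamini-Hochberg over 19937 genes, threshold 0.05); the script was tested on simulated data. Exact permutation used SciPy 1.17.1.

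The members, the 10 related gene lists and 10 marker lists were chosen with earlier results of these data known. Of their list entries 226 of 245 and 83 of 89 were measured. A gene in several lists counts in each, as do Actb, Pink1, Ulk1 and Bnip3l. The 10 pairs of relatives and the neighbours were chosen after the values were seen. Named genes are the 9 members, Klf1, up to 4 called genes with the largest change per related list and up to 2 per marker list (the 2 smallest p where none was called), and the 3 nearest profiles of each called member; others named in a list or family were picked after their values were seen. Of the 12 housekeeping genes measured 1, Pgk1, rose, by 0.88 ± 0.10. Titles number the arrays 1 to 3 in each group, with no statement that a number links embryos; whether embryos were littermates is not given in the labels, and p-values therefore reflect only how far these samples spread. Alternatives were other scalings (quantile; centring on the 75th percentile, on the median level of the housekeeping genes, or on the median of their deviations from their own means), dim gene filters, probe set rules, an added constant, other models of the variance, weights per array, a replicate block, a stricter threshold and leaving out each array.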

Additional observations from a re-analysis of the deposited data

How the results depend on the processing

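The 6 falls and the rise of Rac2 kept their direction and stayed called under all 21 alternatives. Not all of these could move the direction. The dim gene filters, probe set rules, other models of the variance, replicate block and stricter threshold left these changes as they were. Under those only the call could move. Xpo7 ran from -2.51 to -2.11. Fbxo7 became called at -0.28 with 75th percentile centring, -0.52 with housekeeping level centring, -0.20 on log2(value + 50), and -0.21 with genes under the median left out, with eBayes with trend and with trend and robust. Rac1 reversed to -0.19 with housekeeping level centring (adjusted p = 0.07). That centring moved the median of all genes to -0.34, beside -0.02. It called 11 of the 12 housekeeping genes lower, against 0 without it, so it did not level these genes between the groups. Relative to the shifted median Rac1 had 0.15 and Fbxo7 -0.19, as without the centring. The cause of the shift was not tested.

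Counts over all genes were 1646 lower and 2163 higher (43.2% of calls lower). They were 12659 and 586 with housekeeping level centring (95.6%), 1039 lower with housekeeping deviation centring, 985 and 1377 with every probe set tested, 955 and 1128 without moderation, and 835 and 1160 at a threshold of 0.01; 75th percentile centring made 61.0% of calls lower. Leaving out 1 array gave 1026 to 1643 lower and 1371 to 2106 higher, with 1038 and 1371 without knockout replicate 2 and 1026 and 1388 without knockout replicate 3.

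Deviations of same-numbered knockout and wildtype arrays correlated at -0.156, -0.224 and 0.183, and those of differently numbered arrays at -0.165 to 0.329. With 3 arrays a group these values cannot decide whether the numbers pair the arrays. With the replicate block 1496 genes were lower and 2002 higher, 6 of the 9 genes fell and 1 rose, and Fbxo7 had adjusted p = 0.12. RMA intensities of strong probes can be compressed, and with 3 arrays a group small changes such as that of Fbxo7 are near the limit of detection.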
